A study of Mus musculus with 8 samples.

Results

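The genes described here encode developmental transcription factors, the DNA-binding proteins of the Hox, Sox, Fox, Gata, Tbx, Hand, Twist, Mef2, Meis, Pbx, Irx, sine oculis, Runx, Zeb, Tead, Pax and Lhx families. They were chosen by the symbols of protein-coding genes in a deposited RNA-Seq table of mouse cardiac endothelial cells (MCECs). The table held 57 of them among 8278 genes, out of 206 protein-coding genes of the GENCODE annotation of mm10 whose symbols fit the same pattern. *Twistnb* fits it by name alone, since it encodes an RNA polymerase I subunit and no member of the Twist family. The libraries came from 4 samples of *Hdac3* KO MCECs and 4 of EV control MCECs. MCECs are an established mouse line, grown in DMEM with fetal bovine serum. *Hdac3* KO cells carried a stable lentiCRISPR v2 vector with an *Hdac3* guide, and EV cells were transduced with the empty vector and carry the label CTL as genotype. Whether the KO cells were a clone or a mixed population is not stated in the sources used here, nor whether these libraries came from separate cultures, and the study's reporting text speaks both of technical replicates for work in vitro and of biological replicates in general, so p-values measure only the spread between these samples, which may be technical.

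HDAC3 is a histone deacetylase that works within the NCoR and SMRT corepressor complexes, where it removes acetyl groups from histones and other proteins. The factors of these families read short DNA motifs through a homeodomain, a forkhead, an HMG box, a T-box, a zinc finger or a bHLH, MADS, TEA or Runt domain, and set cell identity in the embryo. In the heart, Gata4, Tbx20, Hand2 and Mef2c act together in cardiac progenitors, in endocardium and in myocardium, Tbx18 marks the epicardium, and Sox9, Twist1 and Zeb factors act in the mesenchyme of the forming valves.

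The total number of reads ranged from 15775327 to 22255684 per library. The 57 genes took 3179 to 3293 RPM (reads scaled to the library total) in the EV libraries and 2536 to 2640 in the *Hdac3* KO libraries. To compare libraries, counts were scaled to a common library size with the TMM factors of edgeR (normalized counts). They are listed for replicates 1 to 4 of each group in that order. The targeted gene, *Hdac3*, had normalized counts of 1934, 2067, 2055 and 2137 in EV and 1551, 1458, 1489 and 1524 in KO libraries. The KO libraries were all below the EV libraries, with a log2 fold change of -0.45 ± 0.04 (SE, adjusted p = 1.0e-13). RNA counts do not measure the protein, whose loss in *Hdac3* KO MCECs the paper verified by western blot. The endothelial label was compared with marker genes. Of 15 endothelial markers, 6 were in the table, with a summed FPKM of 26.2 to 28.3 in EV and 20.9 to 22.4 in KO libraries. *Pecam1*, a defining endothelial gene, was close to 0, at a mean of 0.52 normalized counts in EV and 3.97 in KO MCECs, and was the only one of the 6 called higher. *Kdr*, *Flt1*, *Tek*, *Eng* and *Egfl7* were called lower, and *Eng*, with the highest FPKM of the 6, had means of 1436 and 1285 normalized counts. Of 6 epicardial and mesothelial markers, *Wt1*, *Upk3b*, *Msln* and *Krt19* were in the table and summed to an FPKM of 1880 to 1938 in EV and 1442 to 1480 in KO libraries. Of 8 mesenchymal markers, 5 were in the table and summed to 1495 to 1538 and 1147 to 1170. Those of cardiomyocytes (1 of 8), mural cells (2 of 6), endocardium (2 of 4) and blood (2 of 7) summed to 4.83 to 6.54, 5.69 to 6.46, 116.9 to 123.3 and 5.62 to 5.89 in EV libraries. In KO libraries they summed to 1.55 to 1.84, 1.71 to 2.19, 43.4 to 45.6 and 11.4 to 13.0. The endocardial sum was nearly all *Cdh11*, a cadherin gene also expressed in mesenchyme, at a mean FPKM of 120.4 in EV and 44.4 in KO, while *Npr3*, its other gene, was at 0.29 and 0.11. The table holds only genes that differed by the authors' own test, so markers that did not differ are absent from these sums. For that reason the sums do not rank the cell types. The genes of a list did not all move with its sum. *Des*, the mural gene besides *Pdgfrb*, *Krt19* among the epicardial and *Col1a1* among the mesenchymal markers were higher in KO MCECs, at log2 fold changes of 1.62, 0.30 and 0.23. The part of these shifts in the results on the 57 genes was not tested. In bulk samples, fewer cells of a type and less RNA per cell cannot be told apart.

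Of the 57 genes, 39 were lower and 18 higher in *Hdac3* KO than in EV MCECs, and none missed the cut-off, an adjusted p of 0.01 (edgeR, quasi-likelihood test, Benjamini-Hochberg). The table holds only genes whose deposited adjusted p-value, from these same libraries, is under 0.05, so all members had been selected for a difference. Of all 8278 genes, 96.7% passed the cut-off, 49.6% as lower and 47.1% as higher, and the shares among the 57 genes were 68.4% and 31.6%. The 4 libraries of one group lay wholly outside the range of the other for 50 of the 57 genes and for 91.1% of all genes. For a gene of that kind an exact permutation test (two-sided, 70 arrangements of the libraries) gives p = 0.0286, the smallest it can give. The median log2 fold change was -0.45 over the 57 genes and 0.06 over all genes. Without *Twistnb* the count was 39 lower and 17 higher, with a median of -0.46. A log2 fold change of at least 1 in size was seen in 9 lower members and in 2 higher ones. Together they were 19.3% of the 57 genes, against 12.8% of all genes (8.36% lower and 4.43% higher). The 9 were *Hoxc11*, *Sox5*, *Sox6*, *Foxp2*, *Foxa1*, *Tbx20*, *Foxc1*, *Foxf1* and *Mef2c*, and the 2 were *Pax8* and *Foxa3*. All but *Tbx20*, *Foxc1* and *Foxf1* had a mean FPKM (level per length) under 1 over the 8 libraries. The median FPKM was 6.76 for the 57 genes and 12.5 for all genes, and a gene with few reads could enter the table only with a large difference. The groups overlapped for *Hoxc11*, *Pax8* and *Foxa3*. With library totals as the only scaling, without TMM factors, the median of all genes moved by -0.12 to -0.06. The same 39 genes stayed lower under that scaling, while only 6 of the 18 stayed called as higher, among them *Hoxa4*, *Hoxb9*, *Foxn2*, *Tead1* and *Twistnb*. Over all genes that scaling gave 4120 lower and 2671 higher calls, against 4107 and 3895. The TMM factors were computed from the genes of the table alone, all of them selected for a difference. The higher calls lost without these factors therefore depend on the choice of scaling.

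**Figure D1:**
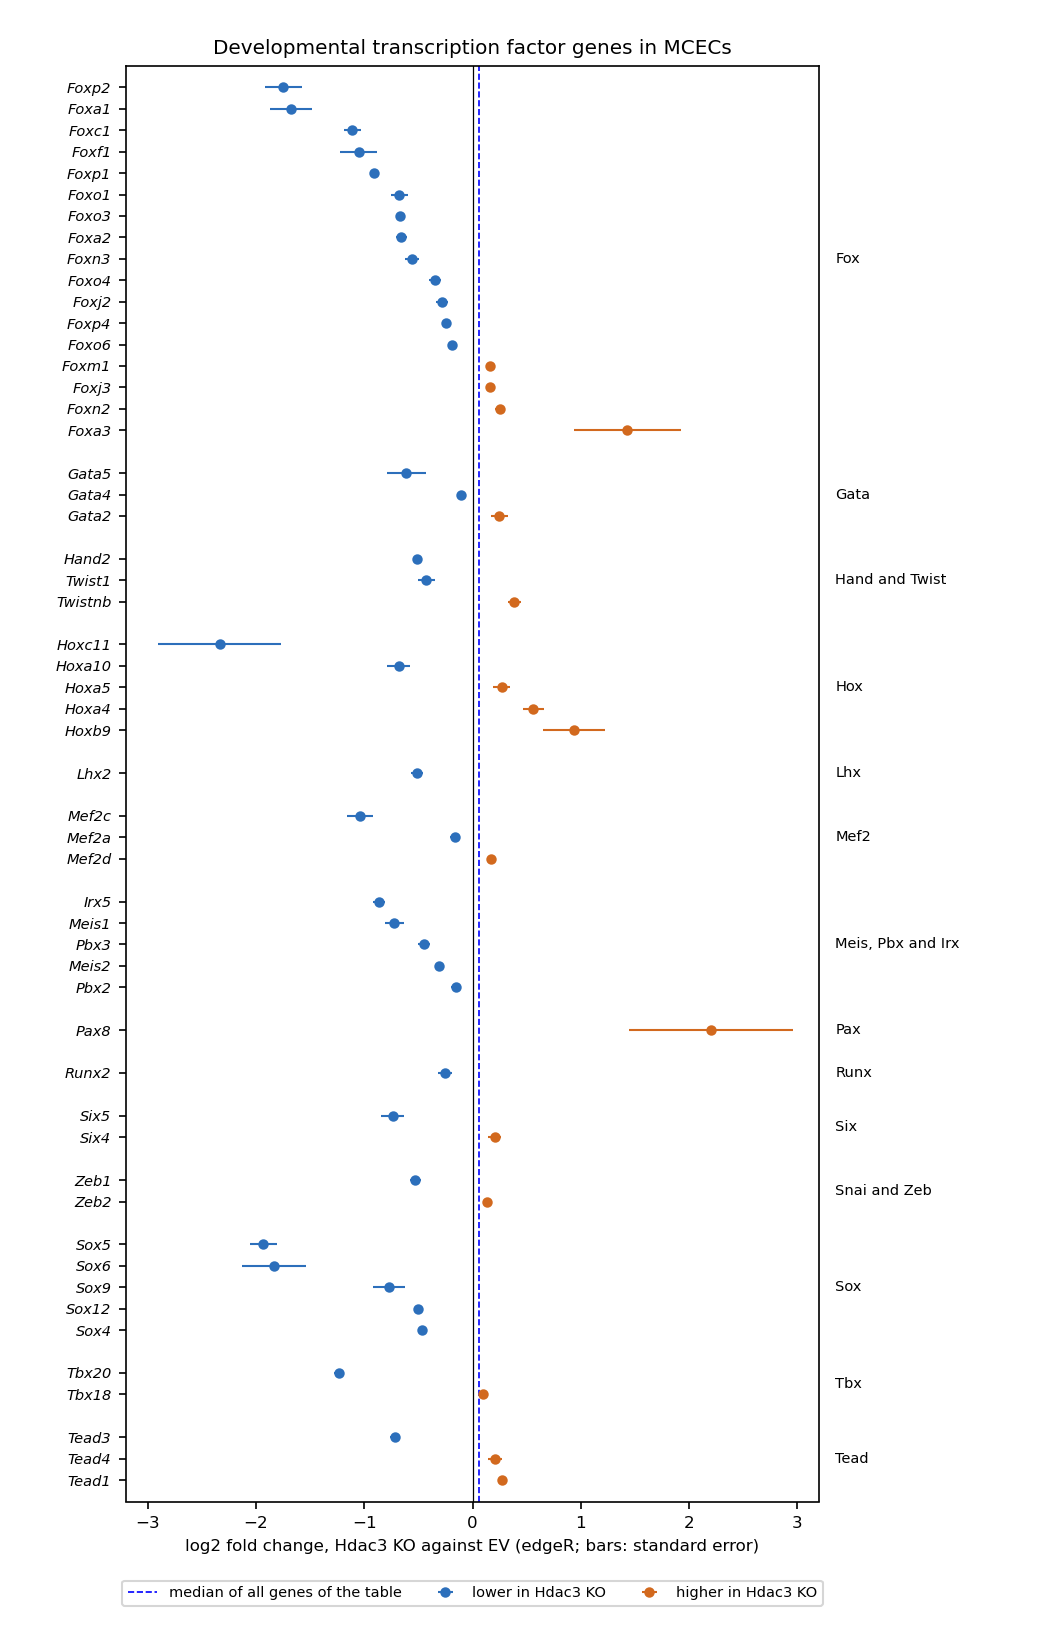
Each point is 1 of 53 of the 57 genes, with its log2 fold change in Hdac3 KO against EV MCECs on the horizontal axis (edgeR, bars are standard errors, 4 libraries a group), sorted within families. Of the points, 37 lie below 0 and 16 above it, and the dashed line marks the median of all genes of the table at 0.06.

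By family, all 5 Sox genes and all 6 Meis, Pbx and Irx genes were lower, as were 13 of 18 Fox genes. *Hand2* and *Twist1* were both lower, and *Twistnb*, grouped with them by name alone, was higher. Of the other families, Gata and Mef2 each had 2 lower and 1 higher gene. Tbx and Zeb had 1 of each, Tead had 1 lower and 2 higher, and Hox had 2 lower and 3 higher. No Nkx, Msx or Dlx gene of the 23 annotated was in the table. Summed over each family, FPKM (a level per length and per library total) was 247 ± 2.69 (SD, n = 4) in EV and 197 ± 4.72 in KO libraries for Fox genes. It was 105 ± 2.34 and 71.1 ± 1.37 for Meis, Pbx and Irx, and 77.9 ± 2.15 and 50.6 ± 0.86 for Sox. The Hox sum was 14.9 ± 0.88 in EV and 15.4 ± 0.79 in KO, and the Tead sum 62.1 ± 2.34 and 59.7 ± 2.17, with the ranges of the groups overlapping for both. FPKM carries no TMM factors, which were 1.038 to 1.046 in EV and 0.957 to 0.962 in KO libraries. The direction of a difference as small as that of the Tead sum therefore depends on the scaling. These sums were not tested.

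**Figure D2:**
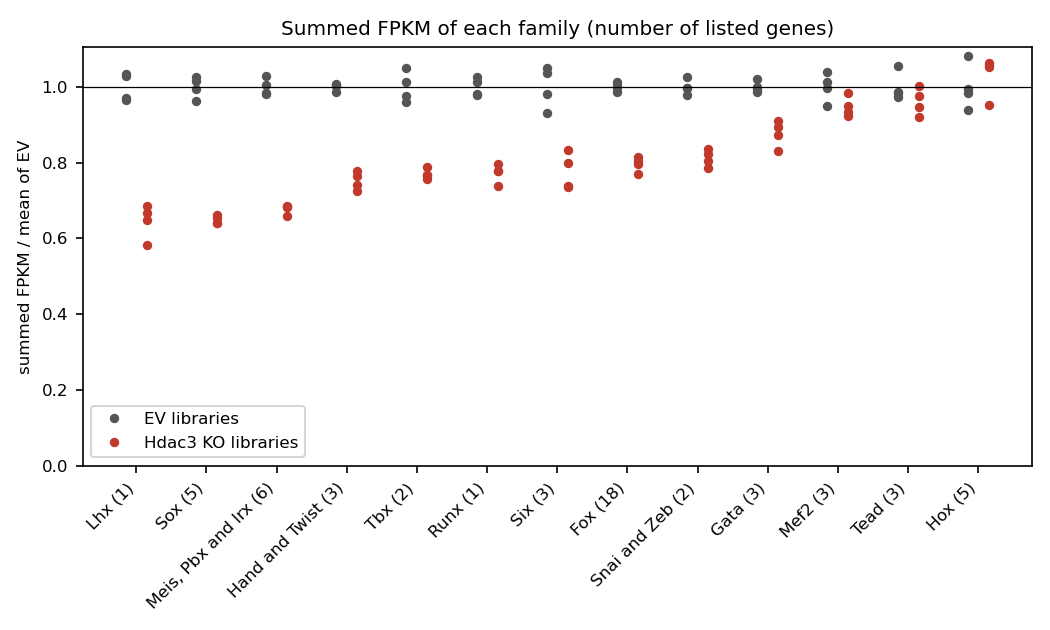
Summed FPKM of 13 families in each library, divided by the mean of the 4 EV libraries, with the number of genes of the family in the table in brackets. The KO libraries lie below all EV libraries for 10 families from Lhx to Gata and overlap them for Mef2, Tead and Hox. The other family of the 14, not drawn, had its KO libraries above all EV libraries. The Hand and Twist sum includes Twistnb.

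RefSeq promoter windows of the same build (GRCm38.p6) were matched by symbol for 37 of the 57 genes, as 57 windows of the 250 bases before an annotated start. Motif letters were searched on both strands in these and in all 32817 windows of the build. The forkhead letters TGTTTAC were in 3.16% of all windows and in 3.51% of the members' windows. For the letters of Tead factors, GGAATG, the shares were 12.6% and 21.1%. Letters of Gata factors, written AGATAA, were found in 9.99% and 7.02% of the windows. For the Sox factors the letters searched were ACAAAG, found in 16.5% and 22.8%. The letters of the TATA box, TATAAA, were in 12.4% and 14.04%. Several windows belong to 1 gene and some of these overlap each other, so windows are not independent. The members' shares rest on 13 windows for the Sox and 12 for the Tead letters. *Sox6* alone had 6 windows, most of them with Sox letters, and several of the windows with Tead letters were those of *Sox6* and *Tead3*. The median number of CpG dinucleotides was 15 in the members' windows, 14 for lower and 15 for higher members, and 6 over all windows. All windows include those of genes absent from the table. These comparisons therefore cannot show a trait particular to the 57 genes. The windows of 5 members are shown. *Sox5*, *Foxa1*, *Tbx20* and *Foxc1* are the lower members with the largest fall among those with a single window, and *Hoxa5* is a higher member. They are written 5′ to 3′ on the strand of the gene, with the searched letters in capitals.
Sox5 (chr6:143947107-143947356, minus strand): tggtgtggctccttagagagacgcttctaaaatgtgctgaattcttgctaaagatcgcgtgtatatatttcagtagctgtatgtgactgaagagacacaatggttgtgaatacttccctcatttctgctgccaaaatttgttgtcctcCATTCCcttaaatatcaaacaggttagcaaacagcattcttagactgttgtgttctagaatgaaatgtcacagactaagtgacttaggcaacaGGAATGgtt
Foxa1 (chr12:57546112-57546361, minus strand): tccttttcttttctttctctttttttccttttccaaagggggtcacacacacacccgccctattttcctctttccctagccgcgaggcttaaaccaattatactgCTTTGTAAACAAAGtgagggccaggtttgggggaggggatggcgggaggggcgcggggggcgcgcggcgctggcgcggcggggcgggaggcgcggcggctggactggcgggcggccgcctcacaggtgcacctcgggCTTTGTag
Tbx20 (chr9:24774304-24774553, minus strand): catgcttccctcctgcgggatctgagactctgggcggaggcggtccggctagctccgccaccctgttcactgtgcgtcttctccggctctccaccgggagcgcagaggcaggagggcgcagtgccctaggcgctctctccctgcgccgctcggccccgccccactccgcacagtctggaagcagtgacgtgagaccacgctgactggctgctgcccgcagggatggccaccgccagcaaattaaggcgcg
Foxc1 (chr13:31806396-31806645, plus strand): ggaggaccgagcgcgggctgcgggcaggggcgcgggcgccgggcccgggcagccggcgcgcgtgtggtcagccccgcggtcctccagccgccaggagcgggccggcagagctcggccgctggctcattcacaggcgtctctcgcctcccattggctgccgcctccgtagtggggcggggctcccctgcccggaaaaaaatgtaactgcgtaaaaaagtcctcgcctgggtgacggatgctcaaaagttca
Hoxa5 (chr6:52204588-52204837, minus strand): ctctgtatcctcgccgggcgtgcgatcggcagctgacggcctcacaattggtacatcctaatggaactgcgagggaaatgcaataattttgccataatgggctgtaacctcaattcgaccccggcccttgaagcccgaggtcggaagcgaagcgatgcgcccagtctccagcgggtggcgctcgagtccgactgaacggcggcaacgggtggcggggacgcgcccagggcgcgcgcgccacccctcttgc
The *Sox5* window, which lies within the gene as the table gives it, had 3 CpG and held the Tead letters at 102 and 9 bases before the start. In the *Foxa1* window, with 21 CpG, the forkhead letters began 141 bases before the start and shared 5 bases with Sox letters on both sides, and more Sox letters lay 8 bases before the start. The windows of *Tbx20* (22 CpG), *Foxc1* (29 CpG) and *Hoxa5* (28 CpG) held none of the 5 motifs. A match describes letters and no binding was measured.

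In *Hdac3* KO MCECs all 5 listed Sox genes were lower. *Sox5* and *Sox6* encode SoxD proteins, which lack an activation domain of their own and assist Sox9 in cartilage. *Sox5* (chr6:143828425-144781977) had normalized counts of 188, 172, 148 and 178 in EV and 42.9, 46.4, 51.5 and 38.3 in KO libraries. The highest KO library was far under the lowest EV library, and no other member with non-overlapping groups and at least 20 normalized counts fell further (log2 fold change -1.93, SE 0.13, adjusted p = 8.8e-16). *Sox6* (chr7:115471344-116038744), with few reads, had 34.3, 32.1, 22.9 and 25.6 in EV and 4.19, 8.20, 6.56 and 12.1 in KO libraries. It fell in a like measure with a wider error (log2 fold change -1.83, SE 0.30, adjusted p = 8.9e-07). *Sox9*, the SoxE factor of cartilage and valve mesenchyme (chr11:112782224-112787760), had 73.2, 85.1, 84.2 and 98.0 in EV and 38.8, 51.0, 62.8 and 47.6 in KO libraries. The KO libraries spread more widely among themselves than those of *Sox5* and still stayed under every EV library (log2 fold change -0.77, SE 0.15, adjusted p = 1.9e-05). *Sox4* and *Sox12* are SoxC genes, linked to outflow tract and neural development. *Sox12* (chr2:152393611-152398063) had 3562, 3717, 3661 and 3750.2 in EV and 2641, 2561, 2591 and 2597 in KO libraries. *Sox4* (chr13:28948919-28953713) had 2637, 2950.4, 2782 and 2839 in EV and 2097, 2098, 1950.4 and 1984 in KO libraries. In both, the groups were tight and apart (log2 fold change -0.50, SE 0.03, adjusted p = 1.6e-17 for *Sox12*, log2 fold change -0.46, SE 0.03, adjusted p = 2.0e-14 for *Sox4*). Per length, *Sox12* led the family, with an FPKM of 44.1 ± 0.840 in EV and 28.7 ± 0.372 in KO, and *Sox6* was the lowest, with 0.186 ± 0.0349 in EV and 0.0465 ± 0.0199 in KO. Of the exonic bases of *Sox4*, 54.6% are shared with *Gm26735* on the opposite strand, and of those of *Sox5*, 9.25% with *Sox5os1*. Since no source states that counting was stranded, reads of these pairs cannot be told apart.

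The Fox genes fall into subfamilies with different roles. *Foxp1*, *Foxp2* and *Foxp4* encode repressors that pair with each other. *Foxp2* (chr6:14901349-15441977) had 66.2, 77.4, 89.4 and 86.5 in EV and 27.2, 22.8, 23.4 and 22.4 in KO libraries. *Foxp1* (chr6:98925338-99522721), which acts in myocardium and endocardium, had 1764, 1809.6, 1808 and 1814 in EV and 916, 1037, 971 and 899 in KO libraries. Every KO library was lower than every EV library for both genes (log2 fold change -1.75, SE 0.17, adjusted p = 2.9e-11 for *Foxp2*, log2 fold change -0.91, SE 0.04, adjusted p = 7.7e-21 for *Foxp1*). *Foxp4* fell by less (log2 fold change -0.25, SE 0.03, adjusted p = 4.9e-09). *Foxa1*, *Foxa2* and *Foxa3* encode pioneer factors of endoderm, able to bind closed chromatin. *Foxa1* (chr12:57540631-57546121) had 82.7, 71.9, 58.2 and 64.4 in EV and 29.3, 22.8, 15.9 and 18.7 in KO libraries. Its libraries spread within each group, yet the groups were well apart (log2 fold change -1.67, SE 0.19, adjusted p = 1.2e-09). *Foxa2* (chr2:148042877-148046969) had 741, 826, 828 and 764 in EV and 489, 515, 518 and 475 in KO libraries. It was lower in all 4 KO libraries (log2 fold change -0.66, SE 0.05, adjusted p = 8.7e-14). *Foxa3* moved the other way on few reads, 1, 2, 3 and 7 in EV and 13, 5, 9 and 12 in KO. The sums of 13 and 39 reads gave, per library size, a ratio of KO to EV of 2.75 with a 95% exact interval of 1.44 to 5.62 for counting error only. Its groups overlapped, and its adjusted p of 6.6e-03 rose to at most 0.028 when 1 library was left out, the call being lost without EV replicate 1, 2 or 3 or KO replicate 1 or 4. It was also lost in DESeq2 (adjusted p = 1.4e-02).

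*Foxc1* and *Foxf1* encode factors of vascular and lateral mesoderm. *Foxc1* (chr13:31806691-31810643) had 386, 387, 408 and 409 in EV and 215, 169, 196 and 161 in KO libraries. The EV libraries were close together, the KO libraries were all lower and more spread (log2 fold change -1.11, SE 0.08, adjusted p = 6.1e-15). *Foxf1* (chr8:121084386-121088144) had 76.8, 77.4, 81.1 and 54.7 in EV and 34.6, 38.2, 36.6 and 28.9 in KO libraries. EV replicate 4 was the lowest of its group and still above all KO libraries (log2 fold change -1.05, SE 0.17, adjusted p = 8.9e-07). The 4 Foxo genes of the table were all lower. Insulin signalling holds Foxo1, Foxo3 and Foxo4 proteins in the cytoplasm, while Foxo6 stays largely nuclear. *Foxo3* (chr10:42181841-42276755) had 2389.7, 2546, 2325 and 2391 in EV and 1612, 1563, 1483 and 1398 in KO libraries. *Foxo1* (chr3:52268337-52350109) had 291, 333, 305 and 289 in EV and 191, 183, 189 and 198 in KO libraries. Both fell by a similar amount, with no overlap (log2 fold change -0.67, SE 0.04, adjusted p = 1.1e-17 for *Foxo3*, log2 fold change -0.68, SE 0.08, adjusted p = 8.4e-10 for *Foxo1*). *Foxo4* fell by 0.35 ± 0.06 on the log2 scale (SE). *Foxo6* (chr4:120267079-120287349), with the highest FPKM of the Fox genes (43.3 ± 0.732 in EV and 34.9 ± 1.34 in KO), had 2071, 2172, 2115 and 2117 in EV and 1831, 1913, 1762 and 1908 in KO libraries. Its groups did not overlap, and its difference was the smallest of the 4 (log2 fold change -0.19, SE 0.03, adjusted p = 2.9e-06).

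*Foxn3*, a repressor linked to cell cycle checkpoints (chr12:99194980-99450111), had 451, 429, 420.1 and 458 in EV and 294, 312, 267 and 322 in KO libraries. It was lower in every KO library (log2 fold change -0.56, SE 0.07, adjusted p = 2.1e-09), whereas its relative *Foxn2* was higher (log2 fold change 0.25, SE 0.04, adjusted p = 1.9e-06). *Foxj2* was lower and *Foxj3* higher, by -0.28 and 0.16 on the log2 scale. *Foxm1*, a driver of G2 and M phase genes, was higher by 0.16. Without TMM factors, *Foxj3* and *Foxm1* were no longer called, both at 0.04. The lower Fox genes with the lowest FPKM and the largest falls were *Foxp2* at 0.631 ± 0.0823 in EV and 0.175 ± 0.0164 in KO and *Foxa1* at 1.16 ± 0.178 in EV and 0.335 ± 0.0904 in KO, but a gene with few reads could enter the table only with a large difference. Those at the highest FPKM, *Foxo6*, *Foxp4* and *Foxm1*, moved by -0.19, -0.25 and 0.16.

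**Figure D3:**
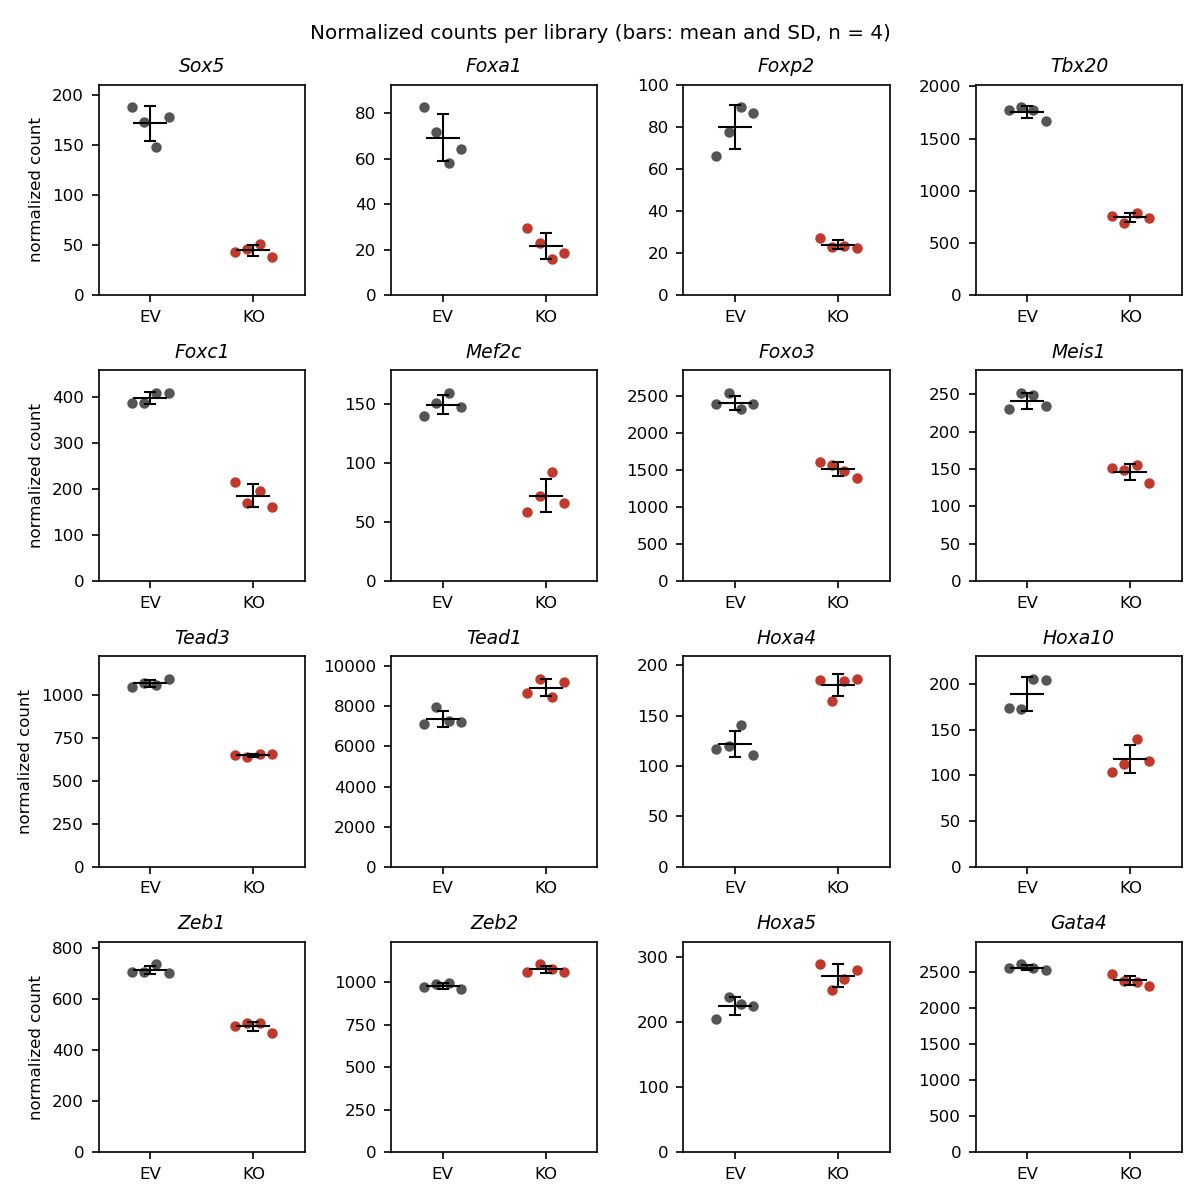
Normalized counts of 16 of the 57 genes in each of the 8 libraries (vertical axes start at 0; grey, EV; red, Hdac3 KO; bars, mean and SD, n = 4). No panel shows an overlap between groups, and the distance between groups is large for Sox5, Foxa1, Foxp2 and Tbx20 and small for Gata4 and Zeb2.

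Of the cardiac factors, *Tbx20*, which acts in chamber myocardium and in endocardium, had the smallest adjusted p of the 57 genes. *Tbx20* (chr9:24720812-24774303) had 1775, 1802, 1776 and 1672 in EV and 756, 693, 789 and 740.1 in KO libraries. No KO library came near the range of the EV libraries (log2 fold change -1.24, SE 0.04, adjusted p = 3.3e-24). *Tbx18*, the epicardial T-box gene (chr9:87702800-87731260), had 2133, 2399, 2267 and 2173 in EV and 2461, 2382, 2362 and 2397 in KO libraries. The groups overlapped and the difference was small (log2 fold change 0.10, SE 0.03, adjusted p = 6.6e-03). Without TMM factors it turned to -0.02, and the call was lost without EV replicate 1, 3 or 4 or KO replicate 1, with an adjusted p of up to 0.038. *Tbx18* also shares 20.6% of its exonic bases with *D030062O11Rik* on the opposite strand. Per length, *Tbx18* was the higher T-box gene in both groups, with an FPKM of 25.6 ± 1.30 in EV and 25.3 ± 0.464 in KO against 14.6 ± 0.501 in EV and 5.70 ± 0.305 in KO for *Tbx20*.

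*Gata4* (chr14:63198922-63271692), the zinc finger factor of early heart and one of the highest members per length (FPKM 40.2 ± 0.489 in EV and 34.5 ± 1.03 in KO), had 2555, 2603, 2547 and 2528 in EV and 2471, 2378, 2366 and 2308 in KO libraries. The groups were close without overlap (log2 fold change -0.10, SE 0.03, adjusted p = 1.8e-03), and the call was lost without KO replicate 4, at an adjusted p of 0.013. Without TMM factors the log2 fold change of *Gata4* was -0.22. *Gata5*, an endocardial factor, was lower with overlapping groups (log2 fold change -0.61, SE 0.18, adjusted p = 2.3e-03), and without EV replicate 3 its adjusted p was 0.013. *Gata2*, a factor of blood and vascular endothelium, was higher with overlapping groups (log2 fold change 0.25, SE 0.08, adjusted p = 4.0e-03). Its call was lost without EV replicate 1, 3 or 4 or KO replicate 2, with an adjusted p of up to 0.041, and without TMM factors at a log2 fold change of 0.13.

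*Hand2*, the bHLH factor of right ventricle and endocardium (chr8:57320983-57324517), had 1734, 1754, 1734 and 1879.5 in EV and 1199, 1311, 1276 and 1186 in KO libraries. All KO libraries were lower (log2 fold change -0.52, SE 0.04, adjusted p = 2.7e-14). Of its exonic bases, 19.6% are shared with the opposite-strand gene *Hand2os1*. *Twist1*, a bHLH factor of mesenchyme (chr12:33957671-33959817), had 305, 268, 307 and 282 in EV and 229, 200.3, 215 and 219 in KO libraries. It was lower without overlap (log2 fold change -0.43, SE 0.08, adjusted p = 5.1e-06). *Twistnb* (chr12:33429624-33439380), the polymerase subunit gene, had 521, 526, 532 and 426 in EV and 642, 639, 696 and 631 in KO libraries. It was higher in every KO library, while EV replicate 4 lay apart from the other EV libraries (log2 fold change 0.39, SE 0.06, adjusted p = 4.3e-07).

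The MADS-box gene *Mef2c*, needed for the anterior heart field and for vessels (chr13:83504034-83667079), had 139, 150.3, 159 and 147 in EV and 58.6, 71.9, 91.8 and 66.3 in KO libraries. It was lower in every KO library (log2 fold change -1.04, SE 0.12, adjusted p = 1.5e-09). *Mef2d* (chr3:88142372-88172086), the Mef2 gene with the highest FPKM (19.5 ± 1.03 in EV and 20.1 ± 0.795 in KO), had 1833, 1985, 2088 and 1958 in EV and 2172, 2325, 2123 and 2214 in KO libraries. The groups were close without overlap (log2 fold change 0.17, SE 0.04, adjusted p = 7.6e-05), and without TMM factors the log2 fold change was 0.05 and no longer called. *Mef2a* was lower (log2 fold change -0.16, SE 0.04, adjusted p = 7.5e-04). The 3 Mef2 genes thus differed in size and direction of change, most in the one with the lowest FPKM (1.24 ± 0.0674 in EV and 0.553 ± 0.109 in KO).

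**Figure D4:**
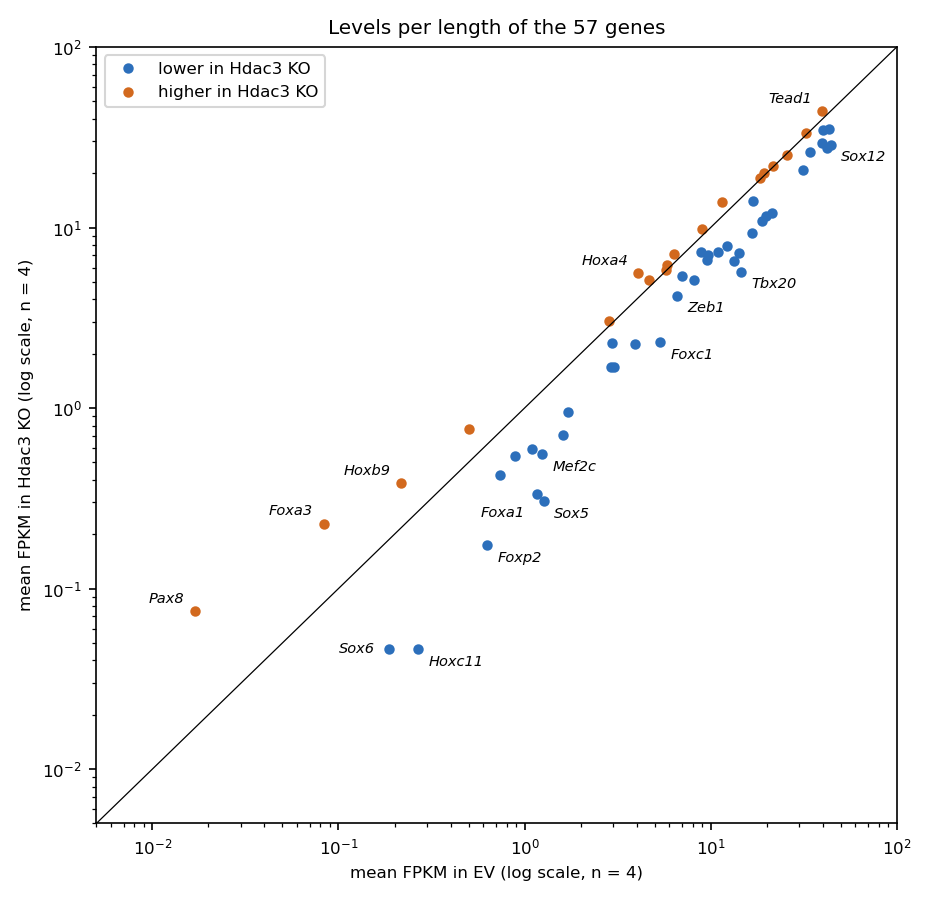
Mean FPKM of each of the 57 genes in EV (horizontal) and Hdac3 KO MCECs (vertical), both on log scales and each over 4 libraries, with the line of equal values. Sox5, Foxp2, Hoxc11 and Pax8 lie far from the line at low FPKM and Tbx20 lies far from it at a higher FPKM, while Tead1 at the upper end lies close to it.

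Hox proteins bind DNA together with the TALE homeodomain proteins of the Meis and Pbx families. *Irx5* is another TALE homeobox gene. *Pbx3* (chr2:34171457-34373142) had 592, 578, 589 and 576 in EV and 430.4, 444, 389 and 443 in KO libraries. Its groups were tight and apart (log2 fold change -0.45, SE 0.06, adjusted p = 4.5e-09). *Meis1* (chr11:18879817-19018985) had 230.4, 252, 249 and 235 in EV and 151, 148, 156 and 131 in KO libraries. *Meis2* (chr2:115863064-116065839), the family's lead per length at an FPKM of 39.8 ± 0.837 in EV and 29.5 ± 0.728 in KO, had 4191, 4111, 4008 and 4048 in EV and 3179, 3270.0, 3359 and 3356 in KO libraries. The KO libraries were all lower for both, and the log2 fold change of *Meis1* was the larger (log2 fold change -0.72, SE 0.09, adjusted p = 2.5e-09 for *Meis1*, log2 fold change -0.31, SE 0.03, adjusted p = 3.9e-12 for *Meis2*). Exons of *Meis1* share 18.3% of their bases with *Gm16140* and *Gm37818*. *Irx5* (chr8:92357796-92361456) had 683, 628, 647 and 606 in EV and 338, 339, 361 and 366 in KO libraries. The KO libraries lay close together under all EV libraries (log2 fold change -0.86, SE 0.06, adjusted p = 8.6e-16). *Pbx2* had a small difference (log2 fold change -0.15, SE 0.04, adjusted p = 1.0e-03).

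Of 39 annotated Hox genes, 5 were in the table, 3 of them in the HoxA cluster on chromosome 6. *Hoxa4* (chr6:52189671-52191753) had 117, 119, 140.4 and 111 in EV and 185, 164, 185 and 187 in KO libraries. Its neighbour *Hoxa5* (chr6:52201754-52204587) had 206, 239, 229 and 225 in EV and 289, 249.5, 266 and 281 in KO libraries. The KO libraries were higher for both without overlap, with KO replicate 2 the lowest of its group in each (log2 fold change 0.56, SE 0.10, adjusted p = 3.6e-06 for *Hoxa4*, log2 fold change 0.27, SE 0.08, adjusted p = 1.6e-03 for *Hoxa5*). Without TMM factors *Hoxa5* was no longer called, at 0.15. *Hoxa10*, at the other end of these 3 in the cluster (chr6:52231197-52240854), had 174, 172, 206 and 204 in EV and 104, 113, 139.6 and 116 in KO libraries. It was lower in every KO library (log2 fold change -0.68, SE 0.10, adjusted p = 2.7e-07). *Hoxa4* shares exonic bases with the opposite-strand gene *Gm29430*. *Hoxb9* was higher on few reads (log2 fold change 0.94, SE 0.29, adjusted p = 2.7e-03), and its call was lost without EV replicate 3 or KO replicate 4, with an adjusted p of up to 0.012. *Hoxc11* had read counts of 11, 3, 14 and 11 in EV and 1, 0, 4 and 3 in KO. The sums of 39 and 8 reads gave a ratio of EV to KO of 5.31 with a 95% exact interval of 2.45 to 13.2 for counting error, and its groups overlapped. Per length, *Hoxa5* was the highest of the 5, at an FPKM of 6.39 ± 0.381 in EV and 7.12 ± 0.452 in KO.

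*Pax8*, known for thyroid and kidney, had read counts of 1, 2, 0 and 1 in EV and 2, 11, 7 and 2 in KO. The sums of 4 and 22 reads gave a ratio of KO to EV of 5.05 with a 95% exact interval of 1.71 to 20.1. Its groups overlapped, and its adjusted p was up to 0.056 with 1 library left out, the call being lost without EV replicate 1, 3 or 4 or KO replicate 2 or 3. In DESeq2 its adjusted p was 1.9e-02. *Lhx2* (chr2:38339281-38369733), a LIM homeobox gene, had 671, 671, 630.2 and 630.3 in EV and 484, 458, 411 and 473 in KO libraries. It was lower without overlap (log2 fold change -0.51, SE 0.06, adjusted p = 3.1e-10). *Runx2*, the bone factor (chr17:44495987-44814797), had 361, 369, 351 and 352 in EV and 310.0, 302, 287 and 303 in KO libraries, also lower without overlap (log2 fold change -0.25, SE 0.06, adjusted p = 4.7e-04).

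*Six4* and *Six5* encode homeodomain proteins, which activate targets with Eya partners. *Six5* (chr7:19094594-19098549) had 156, 160.3, 175 and 191 in EV and 109, 92.0, 114 and 97.1 in KO libraries. It was lower in all KO libraries (log2 fold change -0.74, SE 0.11, adjusted p = 9.8e-08). *Six4* (chr12:73099609-73113456), with the highest mean FPKM of the sine oculis homeobox genes over the 8 libraries (2.84 ± 0.240 in EV and 3.03 ± 0.0728 in KO), had 341, 338, 403 and 368 in EV and 422, 419.8, 428 and 406 in KO libraries. EV replicate 3 came close to the KO libraries (log2 fold change 0.20, SE 0.06, adjusted p = 3.1e-03), and without EV replicate 1 or 2 the adjusted p was 0.014 and 0.015, and without TMM factors the log2 fold change was 0.09 and not called.

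*Zeb1* and *Zeb2* encode repressors of epithelial genes, above all of *Cdh1*. *Zeb1* had 706, 706, 736 and 702 in EV and 493, 506, 507 and 468 in KO libraries. *Zeb2* (chr2:44983634-45117395) had 976, 993, 995 and 959 in EV and 1059, 1106, 1079.7 and 1064 in KO libraries. The KO libraries were lower than all EV libraries for *Zeb1* and higher for *Zeb2* (log2 fold change -0.53, SE 0.05, adjusted p = 9.9e-12 for *Zeb1*, log2 fold change 0.14, SE 0.04, adjusted p = 1.5e-03 for *Zeb2*). Without TMM factors *Zeb2* was at 0.02 and no longer called. Of 16 genes listed as effectors of the epithelial to mesenchymal transition, 8 were in the table, of which 6 were lower and 2 higher, with a median log2 fold change of -0.82. The lower ones included the smooth muscle genes *Tagln* and *Acta2* (-2.25, SE 0.08 and -1.99, SE 0.12) and the protease gene *Mmp2* (-1.45, SE 0.03). *Fn1* and *Cdh2*, encoding fibronectin and N-cadherin, were higher by 0.50 and 0.24.

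Tead proteins bind DNA and carry the Hippo pathway's coactivators Yap1 and Taz, the product of *Wwtr1*. *Tead1* (chr7:112679318-112906807), at an FPKM of 39.6 ± 2.05 in EV and 44.2 ± 2.11 in KO, had 7105, 7980.2, 7263 and 7213 in EV and 8690.5, 9389, 8467 and 9198 in KO libraries. *Tead3* (chr17:28331671-28350805) had 1049, 1071, 1061 and 1098 in EV and 652, 639, 655 and 655 in KO libraries. *Tead1* was higher and *Tead3* lower in every KO library, without overlap (log2 fold change 0.27, SE 0.03, adjusted p = 2.1e-09 for *Tead1*, log2 fold change -0.72, SE 0.04, adjusted p = 3.1e-17 for *Tead3*). Without TMM factors *Tead1* stood at 0.16 and was still called. *Tead4* was higher (log2 fold change 0.21, SE 0.06, adjusted p = 2.8e-03), but its call was lost without EV replicate 3 or 4 or KO replicate 2, with an adjusted p of up to 0.012, and without TMM factors at a log2 fold change of 0.09. Of 21 genes listed as Tead and Yap targets, 17 were in the table, with 11 lower, 5 higher and 1 not called (12, 4 and 1 without TMM factors), and a median of -0.42. The lower ones were led by *Igfbp3* (-2.56, SE 0.03), *Ccdc80* (-2.13, SE 0.03) and *Rbms3* (-1.58, SE 0.07). The higher ones held *Ankrd1*, *Ctgf* and *F3*, at 1.30, 0.91 and 0.78. The coactivator genes *Yap1* and *Wwtr1* were higher, by 0.34 and 0.13, and without TMM factors by 0.22 and 0.02, the latter not called (adjusted p = 0.52). Among the vestigial-like cofactors that compete for Tead, *Vgll3* was higher by 0.42 and *Vgll4* lower, at -0.54.

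Of 39 listed cofactors of the 57 factors, the last 4 included, 17 were in the table, with 11 lower, 5 higher and 1 not called (*Lmo4*), and a median of -0.36. Without TMM factors 11 were lower and 3 higher, *Yap1*, *Vgll3* and *Tle3*, the last just within the cut-off. The lower ones included *Tle2*, a Groucho corepressor (-1.15, SE 0.25), *Eya1*, a partner of Six4 (-1.05, SE 0.15), and *Tcf4*, a bHLH partner (-0.98, SE 0.07). Of 16 listed Foxo targets, 14 were in the table, with 10 lower and 4 higher (10 and 3 without TMM factors), and a median of -0.57. *Pink1* and *Sesn3*, genes of mitochondrial quality control and stress defence, were lower (-0.93, SE 0.07 and -0.84, SE 0.08), and *Tob1*, an antiproliferative gene, was higher (0.83, SE 0.05). Of 17 other endothelial transcription factors, 7 were in the table, 5 lower and 2 higher (5 and 1 without TMM factors), with a median of -0.41. The lower ones included *Epas1* (-0.96, SE 0.06), *Tal1* (-0.76, SE 0.05) and *Hey2* (-0.68, SE 0.17).

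Polycomb proteins silence Hox genes and other developmental genes, and Trithorax proteins keep them active. Of 34 genes listed as Polycomb and Trithorax regulators, *Dot1l* and *Mllt3* of other complexes included, 25 were in the table. Of these, 11 were lower and 14 higher, with a median of 0.11. Without TMM factors 11 were lower and 8 higher, and the median turned to -0.01. Genes of the PRC2 core, *Eed*, *Ezh2* and *Suz12*, were higher, by 0.47, 0.46 and 0.33 on the log2 scale. *Jarid2*, a PRC2 accessory gene, *Cbx6*, a PRC1 reader, and *Mllt3*, of the super elongation complex, were lower (-0.61, SE 0.09, -0.56, SE 0.03 and -0.53, SE 0.05). These lists were chosen with earlier results of these libraries known, and their shares stand beside 49.6% lower and 47.1% higher over all genes.

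**Figure D5:**
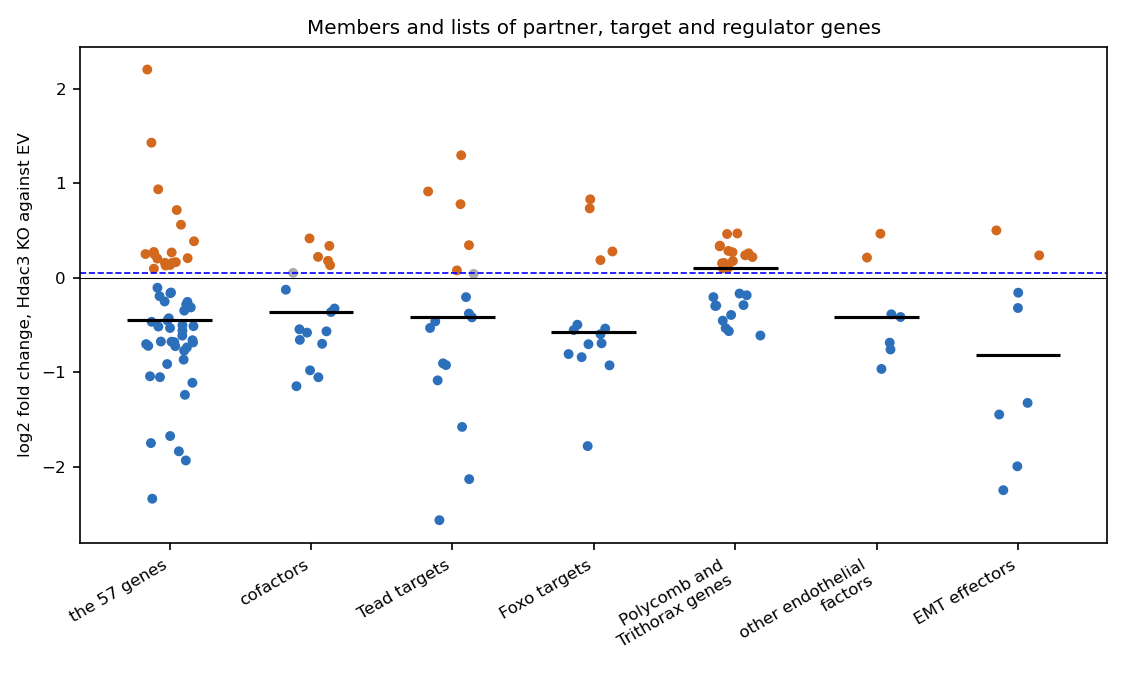
Log2 fold changes in Hdac3 KO against EV MCECs (vertical axis) of the 57 genes and of the genes of 6 lists that were in the table (blue, lower; orange, higher; grey, not called; bars, medians; dashed line, median of all genes at 0.06). The median lies below 0 for the 57 genes and for 5 lists, and at 0.11 for the list labelled Polycomb and Trithorax genes, which also holds Dot1l and Mllt3.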

How the data were processed

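RNA of 8 MCEC samples was sequenced by a provider on an Illumina NextSeq500, and alignment by the authors used tophat2 and bowtie2 on the mm10 genome. The submitters' processing notes also name CASAVA and DESeq 1.6.3. The paper names the lumi package for normalizing RNA-Seq data and extracting the count matrix, and cufflinks and DESeq2 for differential expression. Which program assigned reads to genes, and with which gene annotation, is not given in the sources used here. The deposited counts are whole reads for each gene, not normalized. The deposited FPKM values were computed by the authors from count, gene length and library total. The deposited adjusted p-value of the authors is under 0.05 for all 8278 genes of the table; their group means, fold changes and p-values were not used further. Groups and replicate numbers came from the sample titles.

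Library totals, recovered from count, length and FPKM, were multiplied by TMM factors (edgeR 4.0.16, R 4.3.3). The quasi-likelihood test of edgeR was run on the counts of all 8278 genes, without a filter, with Benjamini-Hochberg adjustment and a cut-off of 0.01. Beyond counting noise, libraries of a group varied by a common coefficient of 2.82%. Precision from read numbers covers counting error only. Libraries of a group differed by more than counting noise, so none was taken for another deposited again.

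The members, gene lists and tests were chosen with earlier results of these data known. Values in every library are given for the 30 members with the largest absolute log2 fold change among called, non-overlapping genes whose higher group averaged 20 or more normalized counts, for the member with the highest mean FPKM of each family, and for *Hdac3*. Some members are not reported here, and 28 of these 30 are. For the other lists the 3 largest changes under the same filter are named; other genes are named for their role and were chosen after their values were seen. Coordinates are those of the deposited table (mm10). The identifier, chromosome and strand matched GENCODE vM21 for 57 of 57 members, and start and end for 40. Exon overlaps were taken from that annotation. Alternatives were DESeq2 1.42.0, its size factors in edgeR, no TMM factors, a replicate block, at least 10 counts in 4 libraries, protein-coding genes only, other cut-offs, adjustment over 30000 genes and leaving out each library. Figures were drawn with matplotlib 3.10.9.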

Additional observations from a re-analysis of the deposited data

Results flagged for a closer look

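In 114 sets of 4 libraries (57 genes in each of 2 groups), 10 held a library that stood far from the other 3 by Dixon's test. Chance gives such a library in about 1 of 20 sets, or 5.7 of 114. In EV replicate 4, *Twistnb* was at 426 normalized counts (others 521 to 532), *Hand2* at 1880 (1734 to 1754) and *Foxf1* at 54.7 (76.8 to 81.1). In EV replicate 3, *Foxp4* was at 2626 (2513 to 2520) and *Zeb1* at 736 (702 to 706). *Foxp1* was at 1764 in EV replicate 1 (1808 to 1814), and *Gata2* at 303 in EV replicate 2 (274 to 277). In the *Hdac3* KO libraries, *Hoxa4* was at 163.9 in replicate 2 (185 to 187), *Tead3* at 639 in replicate 2 (652 to 655) and *Twistnb* at 696 in replicate 3 (631 to 642). Leaving out the library concerned ended the call for none of these 9 genes, *Gata2* included.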

How the results depend on the processing

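The number of lower members was 39 with every test and scaling tried, except 38 with at least 10 counts in 4 libraries, and 9 where a log2 fold change of at least 1 in size was asked for. The number of higher members was 18, and 6 with library totals and no TMM factors and 2 with a log2 fold change of at least 1. It was 16 with DESeq2, 16 with at least 10 counts in 4 libraries and 12 with adjustment over 30000 genes, where *Gata2*, *Pax8*, *Tead4*, *Tbx18*, *Six4* and *Foxa3* lost the call. With 1 library left out, 37 to 39 were lower and 12 to 17 higher. Without TMM factors *Tbx18* turned from 0.098 to -0.019, and the median of the Polycomb and Trithorax list from 0.108 to -0.0098. The median of all genes moved by -0.12 between the scalings. TMM factors were computed from the genes of the table, all of which differed by the authors' own test. Which scaling is nearer the true levels was not tested. With library totals alone *Foxo6* stood at -0.31, *Mef2a* at -0.28, *Pbx2* at -0.27 and *Foxn2* at 0.14, all still called. The replicate block gave 39 lower and 18 higher members. Deviations of same-numbered libraries correlated by -0.02 on average over 7183 genes (from -0.11 to 0.12), so the numbers were not taken as pairs. Few reads limit *Hoxc11*, *Pax8* and *Foxa3*, each at or under 3 counts in at least 1 library.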
